A study of Oryza sativa with 6 samples.

Results

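The comparison described here sets 1 array of nontransgenic rice leaves taken 20 min after the seedlings entered salt against 1 array of nontransgenic leaves taken before it. It covers all 57258 rice probe sets of the Affymetrix rice array, of 57381 on the array, and 2 of the 6 arrays of the series. Both arrays came from the japonica cultivar Zhonghua 11 without a transgene, grown for 2 weeks on half-strength MS medium in a 14 h light and 10 h dark cycle at 28 °C. Leaves at 20 min came from seedlings moved to petri dishes with 200 mM NaCl, and leaves before treatment came from seedlings that had not been moved. The other 4 arrays were nontransgenic leaves after 3 h in the same salt, and leaves of plants with an antisense-OsPDCD5 transgene at 20 min, at 3 h and before treatment. OsPDCD5 is the rice relative of the animal gene PDCD5 (programmed cell death 5). Each array was made from leaves of 10 plants.

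There was 1 array on each side, so no test could be made and no value below has an error. A difference between the 2 arrays holds the salt, the move to a dish, the time that passed, the plants chosen and the array itself, and these cannot be told apart, since no seedlings moved without salt are labelled. In leaf tissue, fewer cells of a type and less RNA per cell cannot be told apart either. The only other pair of arrays over the same step is the antisense pair, which shares no array with this one and is given beside it.

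Salt in the medium lowers the water potential around the root before sodium builds up in the shoot, and the loss of water uptake reaches the leaf quickly. Known early events in plants include calcium signals, abscisic acid and jasmonate signalling, and the switching on of transcription factor genes such as those of the DREB (dehydration-responsive element binding) and WRKY families. Rice leaves also make labdane-related diterpenoids, the momilactones and phytocassanes, which act as phytoalexins (antimicrobial compounds) and are built by enzymes whose genes partly lie side by side in the genome.

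Values were signals per probe set on the linear scale, and a difference is log2(signal + 16) at 20 min minus log2(signal + 16) before, so that 1 is 2-fold on this scale. Adding 16 shrinks the differences of dim probe sets. Of the 57258 rice probe sets, 4186 (7.31%) were at least 2-fold higher at 20 min and 1885 (3.29%) at least 2-fold lower. With 1 probe set for each of 17905 genes, 909 genes (5.08%) were at least 2-fold higher and 412 (2.3%) at least 2-fold lower. The median difference over the genes was 0.01, and 75.9% of them lay within 0.5 of 0. Higher genes made up 68.8% of the genes past 2-fold with the scaling as deposited, but 58.2% after quantile normalization and 50.7% when the arrays were scaled to the spike-in controls, which moved the median of all genes to -0.19.

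At 4-fold, 111 genes (0.62%) were higher and 26 (0.145%) lower. At 8-fold, 19 (0.106%) were higher and 2 (0.0112%) lower. In the antisense pair 4.47% of all genes were at least 2-fold higher and 3.17% at least 2-fold lower. Of the 111 genes at least 4-fold higher in nontransgenic leaves, 82 were at least 2-fold higher there and 4 at least 2-fold lower. Of the 26 genes at least 4-fold lower, 8 were at least 2-fold lower there and 1 was at least 2-fold higher. The 19 genes past 8-fold included 3 with a name, DREB1G, ABA8OX1 and VIT2, and 18 of the 19 were at least 2-fold higher in the antisense pair.

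**Figure D1:**
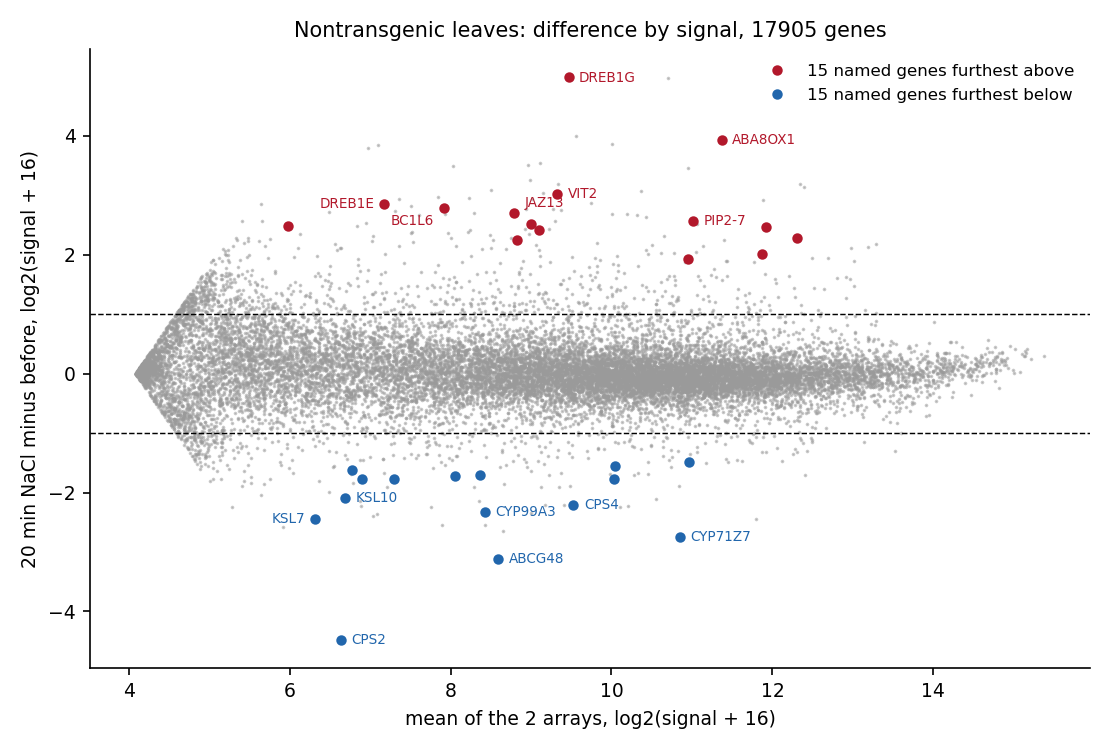
Each point is 1 of 17905 genes, with the mean log2(signal + 16) of the 2 nontransgenic arrays across and the difference, 20 min minus before, up. Coloured points are the 15 named genes furthest above and the 15 furthest below, and the dashed lines mark 2-fold. DREB1G stands at 4.98 and CPS2 at -4.48, and the spread is widest at low signals.

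Low signals carried many of the 2-fold differences. With the genes in 5 equal groups by mean level, 11.2% of the dimmest group were at least 2-fold higher and 4.58% lower, against 1.48% and 0.81% of the brightest group. Of the higher genes in the dimmest group, 11.8% were also at least 2-fold higher in the antisense pair, and in the brightest group this was 58.5%. The deposited values hold a second readout for some genes, a further probe set with a lower mean over the 6 arrays than the one used. It is read on the same 2 arrays, so it is a check of hybridisation and not of plants. Among genes at least 2-fold higher with a signal of at least 100 in either array, 88 had such a second probe set, and 81 of those (92.0%) had the same sign, 38 of them past 2-fold. Among the lower genes, 39 had one, of which 32 (82.1%) had the same sign and 15 were past 2-fold. Without the limit on signal, the shares with the same sign were 80.0% of 145 higher and 69.0% of 58 lower genes. Over all 3444 genes with a second probe set, 61.0% had the same sign, and 6.36% of the second probe sets were at least 2-fold higher and 3.46% at least 2-fold lower. Genes are named below when either array reached a signal of 100.

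DREB and ERF factors held the largest difference of any named gene. DREB1G, a transcription factor of the DREB1 (CBF) family, had a signal of 3965 at 20 min and 110.0 before, a difference of 4.98 or 31.6-fold on the offset scale. In the antisense arrays it had 4724 at 20 min and 66.6 before, a difference of 5.84. Both genotypes thus had a strong signal at 20 min and a weak one before, and in nontransgenic leaves at 3 h the signal was 54.9. DREB1E, of the same family, had 373.7 at 20 min and 37.8 before, a difference of 2.86, with 11.2 at 3 h and an antisense difference of 2.43. DREB1B had 1091 at 20 min and 373.4 before, a difference of 1.51, against 4.60 in the antisense pair. DREB1A, with 380.2 and 256.1, differed by 0.54 in nontransgenic leaves and by 3.08 in antisense leaves.

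The DREB1A and DREB1B signals at 20 min were thus closer to those before treatment in nontransgenic than in antisense leaves, with higher signals before treatment in the nontransgenic array, and this difference between genotypes has no test. DREB2A, a factor known for drought and heat responses, had 190.0 at 20 min and 110.2 before, a difference of 0.71, and 187.4 at 3 h. Among the 10 DREB and ERF genes, 5 (50.0%) were at least 2-fold higher, beside 5.08% of all genes, and none lower, beside 2.3%, with a median of 0.86. DREB1C and DREB2D, which made up the 5, stayed below a signal of 50 in both nontransgenic arrays, and 3 to 5 of the 10 genes were past 2-fold under the other settings.

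JAZ proteins repress jasmonate responses and are broken down when the hormone is sensed, and their genes are known as early jasmonate-responsive genes. Of the 13 JAZ genes, 6 (46.2%) were at least 2-fold higher, beside 5.08% of all genes, 11 lay above 0 and none was at least 2-fold lower, beside 2.3%. Their median was 0.84. JAZ13 had 1108 at 20 min and 157.5 before, a difference of 2.70. JAZ12 had 9089 at 20 min and 1638 before, a difference of 2.46. JAZ5 had 973.0 and 191.5, a difference of 2.25. JAZ10, the only one of the first 4 with a second probe set, had 7477 at 20 min and 1852 before, a difference of 2.00, and 2.32 by the other probe set.

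JAZ8 had 1674 and 468.3, a difference of 1.80. The remaining member past 2-fold, JAZ6, falls outside the naming rule and is named after its value was seen, with 13889 at 20 min and 4613 before. In the antisense pair JAZ13, JAZ12 and JAZ10 differed by 4.48, 4.05 and 3.84, JAZ5 by 2.25 and JAZ8 by 0.48. The 6 genes stayed past 2-fold under every setting tried. At 3 h the nontransgenic signals were 316.1 for JAZ13, 2900.0 for JAZ12, 445.1 for JAZ5 and 1883 for JAZ10, each below its value at 20 min. The 2 times share the array from before treatment, so the 3 h values are given only as values.

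Genes of jasmonate synthesis lay near the middle of all genes in nontransgenic leaves. The 18 genes had a median of -0.07. Of them 1 (5.56%) was at least 2-fold higher and 1 (5.56%) lower, beside 5.08% and 2.3% of all genes. In the antisense pair their median was 0.34. There 5 of the 18 were at least 2-fold higher, beside 4.47% of all genes, and 0 were lower, beside 3.17%. AOS1, an allene oxide synthase, was the higher one, with 850.4 at 20 min and 238.2 before, a difference of 1.77 and an antisense difference of 2.48. AOS2, another allene oxide synthase, differed by 0.82, and by 2.14 in the antisense pair. The lipoxygenase genes went both ways, with LOX5 at 0.79, LOX2 at 0.76 and LOX9 at -0.98. Their antisense differences were 1.08, 0.08 and -0.23 in the same order.

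**Figure D2:**
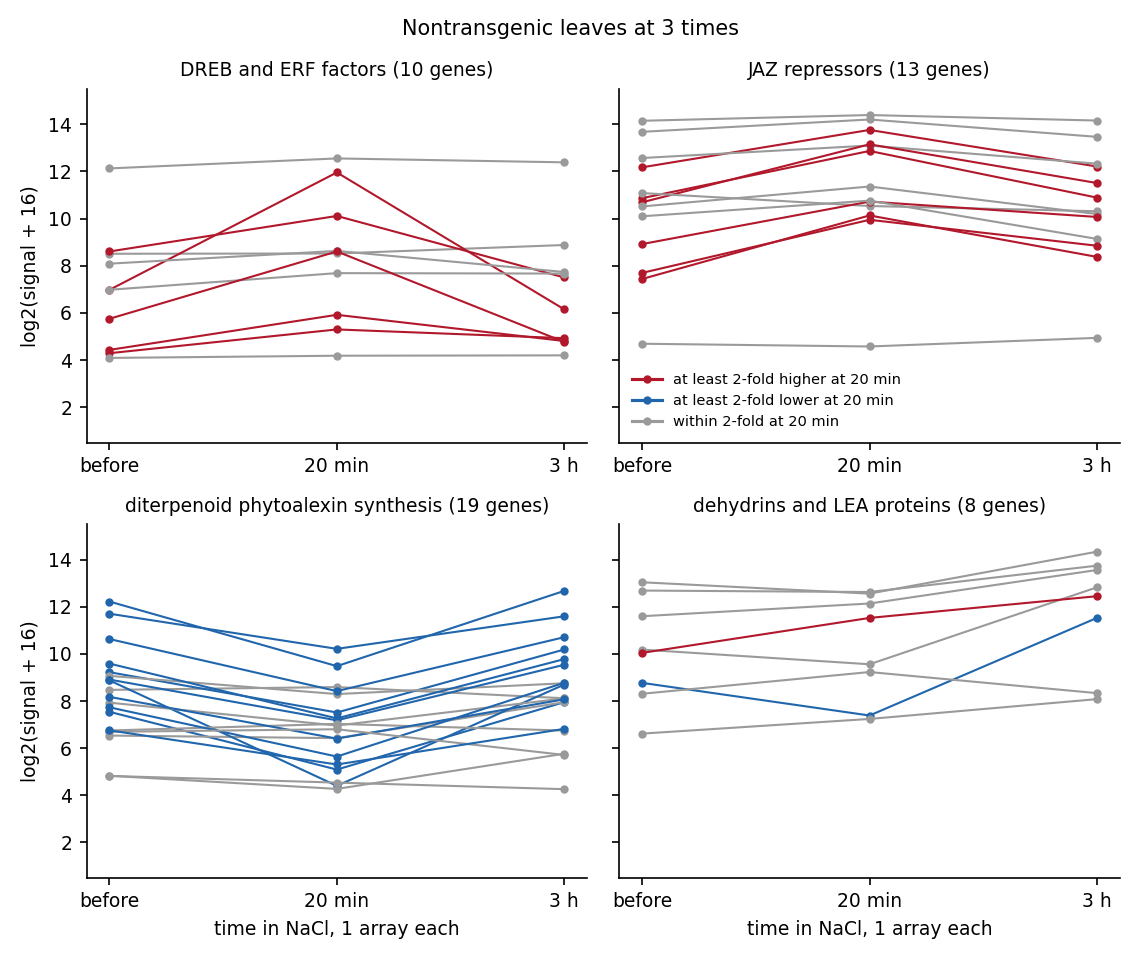
Signals of single genes, log2(signal + 16), on the 3 nontransgenic arrays in order of time, before, 20 min and 3 h, in 4 gene lists. Red lines are genes at least 2-fold higher at 20 min than before, blue lines genes at least 2-fold lower, and grey lines the rest. The DREB and JAZ genes past 2-fold peak at 20 min, the diterpenoid genes past 2-fold are lowest there, and most dehydrin and LEA genes stand highest at 3 h.

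Abscisic acid is the hormone of water shortage, and its level is set by synthesis and by breakdown through 8'-hydroxylases. ABA8OX1, an abscisic acid 8'-hydroxylase, had 10325 at 20 min and 660.8 before, a difference of 3.93 or 15.3-fold on the offset scale. In antisense leaves it had 13361 at 20 min and 178.7 before, a difference of 6.10. The other breakdown gene measured, ABA8OX2, had 805.3 and 650.6, a difference of 0.30. The 1 synthesis gene that could be placed, ABA1 (zeaxanthin epoxidase), had 2643 at 20 min and 2451 before, a difference of 0.11, and 5819.6 at 3 h.

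Receptors and kinases of the abscisic acid pathway lay near the middle of all genes, with a median of 0.13 over 11 genes. SAPK kinases act below the abscisic acid receptors, and SAPK7 was at least 2-fold higher, with 167.8 and 64.3 and a difference of 1.20. SAPK9 was at least 2-fold lower, with 40.4 and 100.6 and a difference of -1.05. Neither of these 2 genes was past 2-fold with an offset of 64, and in the antisense pair they differed by -0.09 and -0.62. sapk2 and SAPK6 lay just inside 2-fold at 0.91 and 0.90.

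PP2C phosphatases include the negative regulators of abscisic acid signalling. Of 56 genes, 7 (12.5%) were at least 2-fold higher, beside 5.08% of all genes, and none lower, with a median of 0.09. In the antisense pair 2 of the 56 were at least 2-fold higher. OsPP2C40 led them with 5309 at 20 min and 1412 before, a difference of 1.90, and it is the gene just outside the 15 largest increases. OsPP2C64 differed by 1.22, OsPP2C07 by 1.13 (1.14 by its second probe set), OsPP2C35 by 1.02 and OsPP2C61 by 1.01. The last 2 lay at the threshold, and the count was 3 with an offset of 64, 4 with spike-in scaling and 8 with an offset of 1. In the antisense pair the 5 named genes differed by 1.16, 0.34, 0.78, 0.83 and 1.07 in the same order.

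Other transcription factor lists had few members with large differences. WRKY71, a factor known from defence and gibberellin responses in rice, had 11176 at 20 min and 2276 before, a difference of 2.29, with 2.67 by its second probe set and 2.89 in the antisense pair. WRKY24 had 1305 and 449.2, a difference of 1.51, against 3.58 in antisense leaves. These were the 2 of the 6 listed WRKY genes past 2-fold (33.3%, beside 5.08% of all genes higher), and the median of the 6 was 0.39. WRKY76, a defence regulator, differed by 0.39 in nontransgenic leaves, with 658.1 and 498.0, and by 3.12 in antisense leaves, with 786.4 and 76.3.

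JAMYB, a jasmonate-responsive MYB factor, had 1325 at 20 min and 390.5 before, a difference of 1.72, and MYB2 had 1294 and 463.5, a difference of 1.45. The median of the 10 MYB genes was -0.12, and MYBAS1, at 1024 and 2008, was the lowest with -0.96. Of 8 NAC genes 1 (12.5%, beside 5.08% of all genes) was at least 2-fold higher, ONAC004 at 1.02, with 217.3 and 99.1. With an offset of 64, or with any of the 3 other scalings, the list held 0 higher genes. NAC6, known for stress tolerance in rice, lay at 0.59 with 10235 at 20 min and 6796 before. Its other probe sets ranged from 0.02 to 0.84. No gene was past 2-fold among 21 bZIP factors, 13 zinc finger stress factors or 16 MAP kinases. Over all genes 5.08% were higher and 2.3% lower, so lists of this size would hold few such genes. The largest difference in each list was -0.74 for TGAL11, 0.95 for ISAP1 and 0.97 for MPK14. After quantile normalization 1 MAP kinase was at least 2-fold higher, and with an offset of 1 there was 1 lower bZIP gene. MPK5, a kinase of stress and defence responses, lay at 0.75 in nontransgenic and 2.21 in antisense leaves.

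Calcium kinases and sensors decode calcium signals. Of 80 genes, 5 were at least 2-fold higher, 1 was lower and the median was 0.01, so that the share of higher genes (6.25%) was near the 5.08% of all genes. The calcium-dependent kinase CPK4 had 4881 at 20 min and 1548 before, a difference of 1.65 and an antisense difference of 2.49. CBL4, the rice counterpart of the Arabidopsis salt tolerance gene SOS3, had 2369 and 894.2, a difference of 1.39. CML20, a calmodulin-like gene, differed by 1.26 and CPK20 by 1.03, while CBL9 had 311.9 and 659.9, a difference of -1.04. The second probe set of CBL9 differed by -0.02, and with the mean over probe sets the list held 0 lower genes.

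Water and ion transport was represented by single genes. PIP2-7, a plasma membrane aquaporin (water channel), had 5022 at 20 min and 835.0 before, a difference of 2.57, with 3335 at 3 h and an antisense difference of 1.73. PIP2-5, another member, had 253.6 and 591.1, a difference of -1.17, and the median of the 26 aquaporins was 0.17. In the list of 28 genes of sodium and potassium transport the median was -0.06. The potassium channel gene KCO2 had 191.8 and 65.9, a difference of 1.34. AKT1, the inward potassium channel, had 695.4 and 322.8, a difference of 1.07. In the antisense pair KCO2 differed by 1.99 and AKT1 by 0.34. The list held 0 genes at least 2-fold higher with an offset of 64 and 1 with spike-in scaling. HKT1;5, which removes sodium from the xylem, had 74.6 and 154.4, a difference of -0.91. VIT2, a vacuolar iron transporter in none of these lists, had 1812 at 20 min and 208.4 before, a difference of 3.03. In antisense leaves it was listed at 2.12 at 20 min and 52.5 before, a difference of -1.92. The antisense difference rests on a signal below 16, and it was -0.82, inside 2-fold, with an offset of 64, where the nontransgenic one was 2.78.

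Dehydrins and LEA (late embryogenesis abundant) proteins protect cells during water loss. At 20 min 4 of the 8 genes lay above 0 and 4 below, with a median of 0.24. Of the 8, 1 (12.5%) was at least 2-fold higher and 1 (12.5%) lower, beside 5.08% and 2.3% of all genes. Emp1 had 2939 at 20 min and 1040.3 before, a difference of 1.48. RAB16C had 151.5 and 421.4, a difference of -1.39. In antisense leaves these differed by -0.67 and -1.27, and the list median was -1.13. There 4 of the 8 genes were at least 2-fold lower, beside 3.17% of all genes, and 0 were higher, beside 4.47%. At 3 h the nontransgenic signals were 5583 for Emp1, 2943 for RAB16C, 7254 for RAB16B and 255.2 for RAB16D, each above both earlier arrays.

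Osmolyte and trehalose genes stayed within 2-fold, except TPP4, whose highest nontransgenic signal was 34.1. P5CS2, an enzyme of proline synthesis, had 615.7 at 20 min and 304.6 before, a difference of 0.98, which was 0.00 as a mean over the gene's 4 probe sets. Among 23 heat shock factors and proteins, HSFA3 had 524.6 and 131.8, a difference of 1.87, and HSFB2A had 2938 and 1389, a difference of 1.07, and 0.82 by its second probe set. The median of that list was 0.04. Redox enzymes had a median of 0.00 over 55 genes, and 2 glutaredoxin genes were lower, GRXC10 with 601.9 and 1800.2 at -1.56 and GRXC15 with 837.1 and 2035 at -1.27. In the antisense pair GRXC10 stood at -0.01 and GRXC15 at -1.29.

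Cell wall genes counted 10 of 63 (15.9%) at least 2-fold higher and 3 (4.76%) lower, beside 5.08% and 2.3% of all genes, with a median of 0.16. CESA5, a cellulose synthase subunit, had 1255 at 20 min and 221.4 before, a difference of 2.42 and an antisense difference of 2.64. BC1L6, a COBRA-like gene of the brittle culm family, had 619.0 and 76.1, a difference of 2.79 and an antisense difference of 2.25. The other 3 named members were XTH8, a wall-loosening enzyme, at 1.75, the expansin EXPA29 at 1.65 and CSLC9 at 1.47, with antisense differences of -0.11, -0.07 and 0.36. EXPA29 was near background in antisense leaves, with 1.26 and 2.17, and its nontransgenic difference was 1.04 with an offset of 64. Both EXPA29 and CSLC9 were dim before treatment in nontransgenic leaves, at 31.1 and 38.5. The list held 4 higher and 0 lower genes with an offset of 64, 16 and 6 with an offset of 1, and 8 and 6 with spike-in scaling.

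Of 57 auxin genes 3 (5.26%) were at least 2-fold higher, a share near the 5.08% of all genes, and 4 (7.02%) were lower, beside 2.3%. PIN3A, an auxin efflux carrier, had 1211 at 20 min and 199.4 before, a difference of 2.51, with 2.35 by its second probe set and 1.16 in the antisense pair. ARF10, an auxin response factor, lay at 1.56. The auxin-responsive genes SAUR39, IAA19 and GH3-8 were lower, at -1.16, -1.22 and -1.08, SAUR39 with 2289 and 5143. SWEET2A, a sugar transporter, had 3861 at 20 min and 999.9 before, a difference of 1.93 and an antisense difference of 1.74, and the median of the 32 sugar genes was 0.20. GER5, of the germin-like family, had 132.7 and 10.7, a difference of 2.48, and 0.25 in the antisense pair. Its signal before treatment was below 16, and the difference was 3.51 with an offset of 1 and 1.40 with an offset of 64.

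Among 11 genes of the gibberellin pathway, CIGR1, a chitin-inducible gibberellin-responsive gene, had 8346 at 20 min and 2665 before, a difference of 1.64 and an antisense difference of 1.69. Both lower members, CYP701A8 and CYP701A9, also belong to the diterpenoid list below. In the cytokinin list (29 genes, median 0.02) CKX4, a cytokinin oxidase, lay at 1.07 and LOGL9, of the family of cytokinin-activating enzymes, at -1.12. In the antisense pair CKX4 differed by 0.27 and LOGL9 by 0.89, the opposite way. The list held 0 genes at least 2-fold higher with an offset of 64 or with spike-in scaling. Of 11 ethylene genes, ACO1, which makes ethylene in its last step, had 1786 and 662.4, a difference of 1.41, against 0.47 in antisense leaves.

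**Figure D3:**
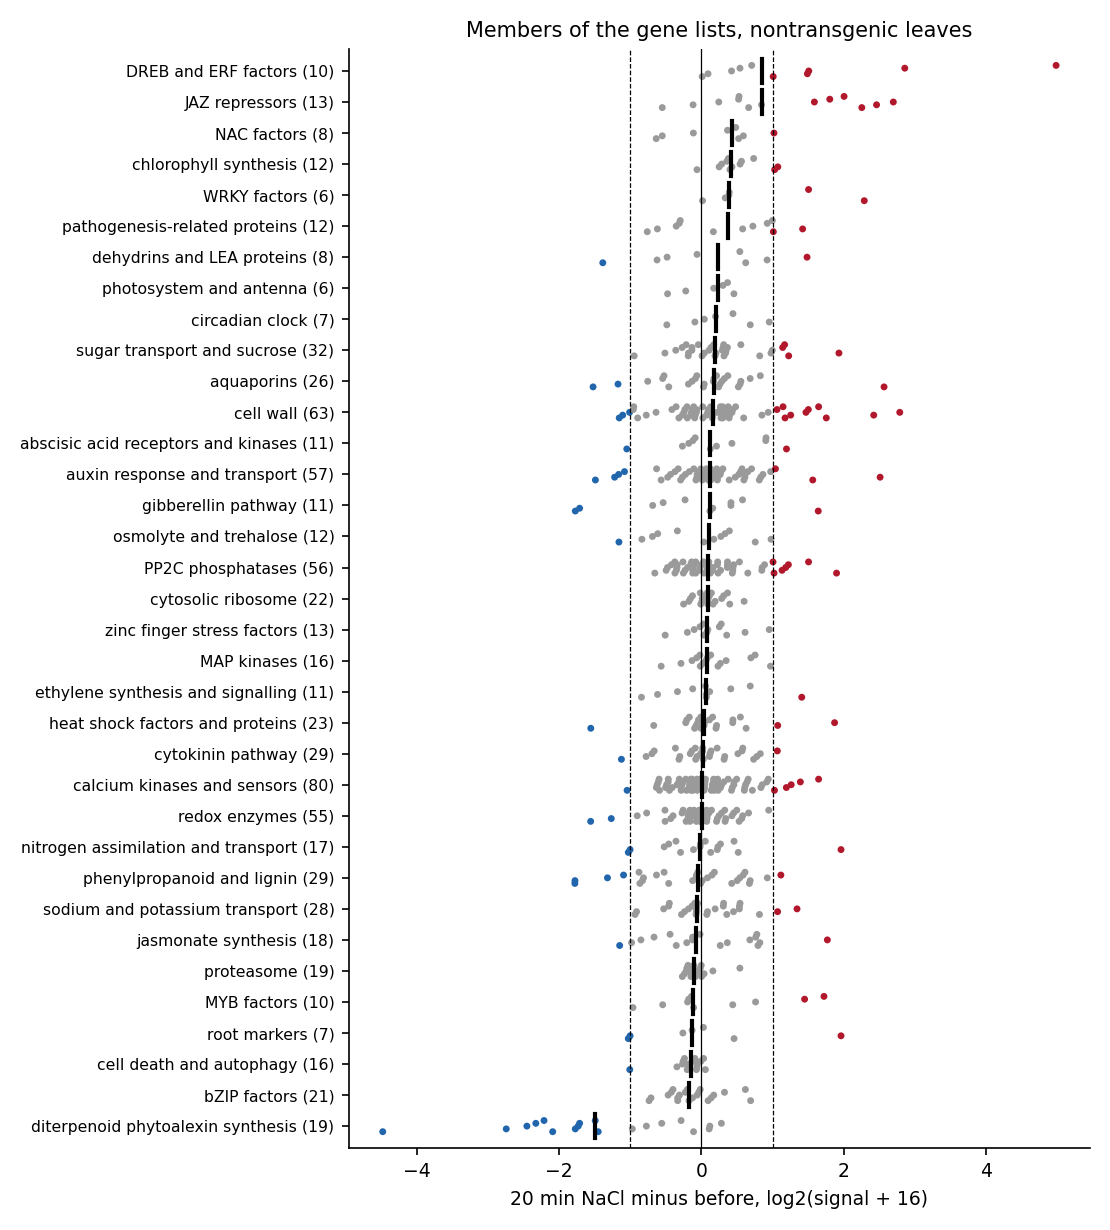
Each point is 1 gene of a list, placed by its difference, 20 min minus before, on the log2(signal + 16) scale in nontransgenic leaves. Black bars are list medians, the number of genes is in brackets, and red and blue points are past 2-fold. The medians of the DREB and JAZ lists lie at 0.86 and 0.84 and that of the diterpenoid list at -1.49, and 30 of all 38 lists have medians within 0.25 of 0.

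The diterpenoid phytoalexin list was the one furthest below 0. Of 19 genes, 11 (57.9%) were at least 2-fold lower, none was at least 2-fold higher and the median was -1.49, against 2.3% of all genes lower and a median of 0.01. The count lay between 10 and 13 under the other settings and the median between -1.80 and -1.35. Summed over the 19 genes, the signal was 3854 at 20 min and 14033 before, and the sum at 3 h was 16773. The genes were put in the list by name, with results of these arrays already known.

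CPS2 and CPS4 make the starting diphosphates, ent-copalyl diphosphate for phytocassanes and syn-copalyl diphosphate for momilactones. CPS2 had 5.17 at 20 min and 454.9 before, a difference of -4.48, the lowest of any gene, and 400.7 at 3 h. With a signal of 5.17 the size rests on the offset, and it was -6.21 with an offset of 1 and -2.91 with an offset of 64. CPS4 had 327.1 at 20 min and 1572 before, a difference of -2.21, and 1662 at 3 h. CPS1, which serves gibberellin synthesis, had 95.8 and 87.7, a difference of 0.11, and lies outside the naming rule. The 2 phytoalexin cyclases were thus lower at 20 min than before, and CPS1 was within 2-fold.

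KSL genes encode the next cyclases. KSL7, which forms the phytocassane skeleton, had 18.1 at 20 min and 170.7 before, a difference of -2.45, but its second probe set differed by -0.40. KSL10 had 34.1 and 197.0, a difference of -2.09, and KSL4, the momilactone cyclase, had 23.7 and 92.3, a difference of -1.45. KSL4 did not reach the signal of 100 and is named for its place between the other momilactone genes. All 3 had dim signals at 20 min.

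Cytochrome P450 enzymes oxidise the skeletons. CYP71Z7, a phytocassane enzyme, was the strongest member before treatment with 4768, against 699.6 at 20 min, a difference of -2.74, and it had 6534 at 3 h. CYP99A3 and CYP99A2, both momilactone enzymes, had 137.8 and 129.3 at 20 min against 755.2 and 466.3 before, differences of -2.33 and -1.73. CYP701A9 and CYP701A8, of the kaurene oxidase family, had differences of -1.77 and -1.71. The gene that the reference table calls CYP76M7 had 1174 at 20 min and 3328 before, a difference of -1.49. It is counted in the list under that name, and whether it is the enzyme of that name was not tested. Momilactone A synthase (OsMAS) lay just inside 2-fold at -0.97, with 108.8 and 228.5. The list thus had its lower members at the cyclases and at the oxidation steps.

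The genes' order in the reference table (RefSeq assembly ASM3414082v1) was looked up after these values were seen, and it is used only for which genes are neighbours. A first stretch of 10 protein-coding genes held 9 with a probe set, in the order CYP76M5, CYP76M8, LOC4329723, KSL7, CYP71Z6, CYP71Z7, CPS2, KSL5 and CYP76M6. Of its 8 list members 3 were at least 2-fold lower, and so was the unlisted LOC4329723, with 706.9 at 20 min and 3095 before, a difference of -2.11. CYP71Z6 lies between KSL7 and CYP71Z7 and differed by -0.11, with 70.0 and 76.9, and CYP76M6 differed by 0.28, though its second probe set differed by -2.08. The members of this stretch thus differed among themselves. A second stretch of 6 genes held CPS4, CYP99A3, OsMAS, KSL4 and CYP99A2, of which 4 were at least 2-fold lower, and all 5 lay between -2.33 and -0.97. The third, of 4 genes, held CYP701A9, CYP701A8 and CYP701A19, and CYP701A19, at 370.6 and 340.0, differed by 0.12.

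**Figure D4:**
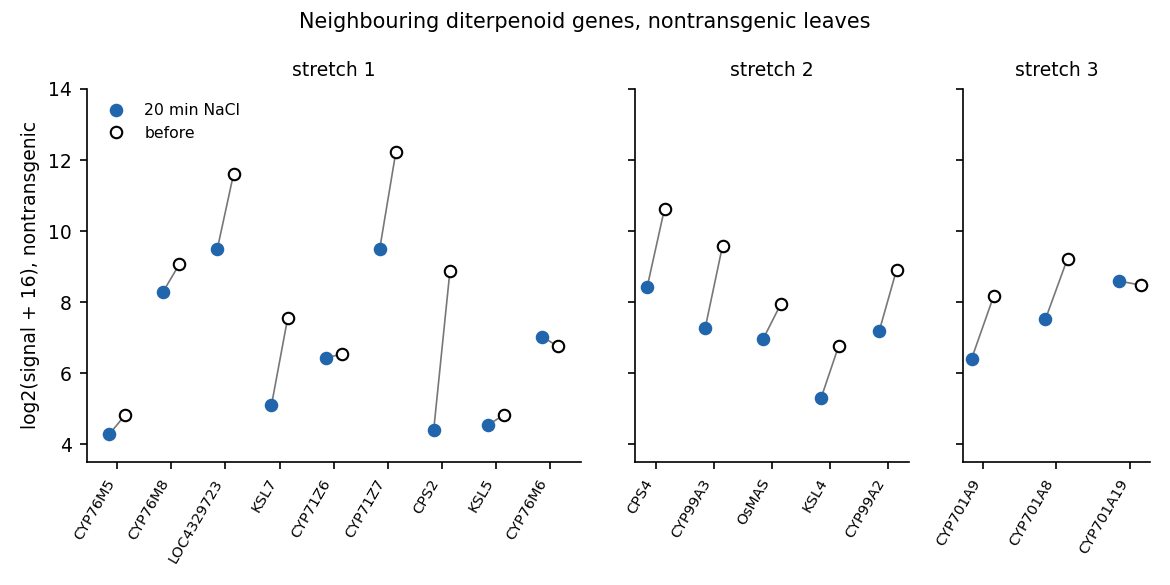
Signals, log2(signal + 16), in nontransgenic leaves at 20 min (filled) and before treatment (open), for neighbouring genes in their order along 3 stretches. In the second stretch all 5 genes are lower at 20 min, in the first CPS2 and CYP71Z7 show the widest gaps and CYP71Z6 nearly none, and in the third CYP701A19 differs from its 2 neighbours.

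The antisense pair gave another picture for these genes. There 5 of the 19 were at least 2-fold lower, beside 3.17% of all genes, and the median difference was -0.12. Of the 11 genes lower in nontransgenic leaves, 4 were also at least 2-fold lower in antisense leaves: CPS2 at -1.56, CYP71Z7 at -2.12, KSL10 at -3.19 and CYP701A8 at -1.32. Before treatment 6 of all 19 genes had a nontransgenic signal below 100 and 10 had an antisense signal below 100. Among the 11 these numbers were 1 and 6, but the 11 were chosen by being lower than that same nontransgenic array. That choice favours genes with a high nontransgenic signal before treatment. CPS4, for example, had 51.6 at 20 min and 41.0 before in antisense leaves. The summed signal of the list in antisense leaves was 3622 at 20 min and 4997 before. KSL7 had 1693 at 20 min and 1630.1 before in antisense leaves, the highest signals of the list there.

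The lower genes outside the diterpenoid list had other roles. ABCG48, a transporter of the ABCG family, had 114.8 at 20 min and 1118 before, a difference of -3.12, with 1952 at 3 h and an antisense difference of -1.86. PAL06, a phenylalanine ammonia lyase, the entry enzyme of phenylpropanoids, had 551.1 and 1928, a difference of -1.78, and -1.23 by its second probe set. In antisense leaves PAL06 had 28.8 and 27.4. The laccase LAC24 had 48.4 and 204.6, a difference of -1.78, and -3.72 in the antisense pair.

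The list of 29 phenylpropanoid and lignin genes had a median of -0.05. In it 4 (13.8%) were at least 2-fold lower and 1 (3.45%) higher, beside 2.3% and 5.08% of all genes. The lower count lay between 3 and 8 under the other settings. AT5, of the acyltransferase family, had 3201 at 20 min and 8013 before, a difference of -1.32. CHS1, chalcone synthase, differed by -1.09 on the brightest of its 5 probe sets, and the mean over all 5 was -0.15. Of 12 pathogenesis-related genes 2 (16.7%) were higher, beside 5.08% of all genes, and none lower, beside 2.3%, with a median of 0.37. The higher ones were the chitinase Cht6, with 1505 and 551.6 and a difference of 1.42, and chia4a, at the threshold. chia4a had 95.3 and 39.2, a difference of 1.01, and is named after its value was seen. With an offset of 64, or with any of the 3 other scalings, the list held 1 higher gene. It held 4 with an offset of 1, and its antisense median was -0.37. Cht4 lay just inside 2-fold with 120.4 and 52.3. OsCASPL3A1, of the family of Casparian strip membrane proteins, had 46.2 and 175.7, a difference of -1.62.

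**Figure D5:**
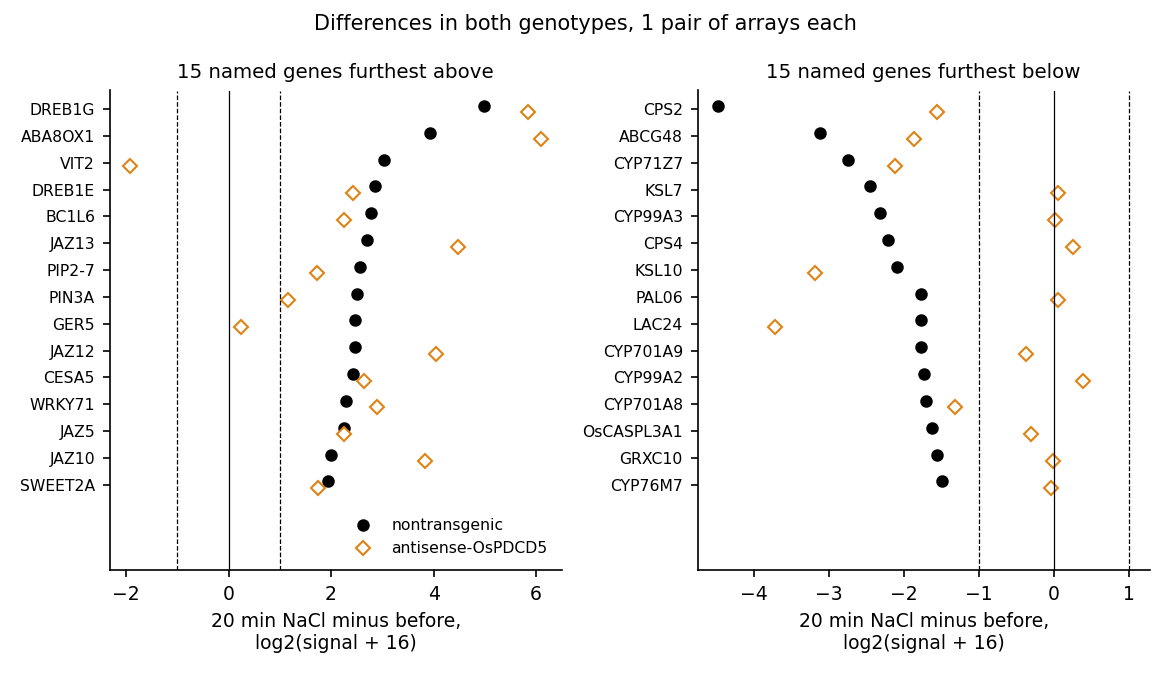
Differences, 20 min minus before, on the log2(signal + 16) scale for the 15 named genes furthest above and the 15 furthest below in nontransgenic leaves (black circles), with the antisense-OsPDCD5 pair beside them (open orange diamonds). Of the 15 upper genes 13 are past 2-fold the same way in the antisense pair and VIT2 lies past 2-fold on the other side. Of the 15 lower genes 6 are past 2-fold the same way and none is opposite by 2-fold.

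Over all genes the overlap of the 2 pairs was partial. Of the 909 genes at least 2-fold higher in nontransgenic leaves, 286 were also at least 2-fold higher in antisense leaves, which is 31.5% of the nontransgenic list and 35.8% of the antisense list, and 4.47% of all genes were higher in antisense leaves. Of the 412 lower genes, 82 were also lower in antisense leaves, 19.9% of the nontransgenic and 14.4% of the antisense list, beside 3.17% of all genes. The antisense difference was past 2-fold the opposite way in 38 of the higher genes (4.18%) and 23 of the lower genes (5.58%). These shares were near those of all genes, of which 3.17% were lower and 4.47% higher in antisense leaves. Among genes with a signal of at least 100 in either nontransgenic array, the shared part was 239 of 481 higher genes (49.7%, beside 3.53% of all such genes higher in antisense leaves) and 64 of 238 lower genes (26.9%, beside 1.81%).

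The next named genes outside the 15 on each side were OsPP2C40 at 1.90 and SK1 at -1.40. Just inside were SWEET2A at 1.93 and the gene that the reference table calls CYP76M7 at -1.49. Most of the array's genes have no name in the reference table. Of 17905 genes, 2450 had one, and 134 of these (5.47%) were at least 2-fold higher and 68 (2.78%) lower. The unnamed gene with the largest increase was LOC4324781, with 9330.3 at 20 min and 281.3 before, a difference of 4.97 and an antisense difference of 4.87. LOC4325978 had 3007 and 173.0. On the lower side LOC4337892 had 145.4 and 991.3, a difference of -2.64, and LOC4344198 had 8.74 and 131.2, a difference of -2.57. These 4 were chosen after their values were seen.

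Genes of basic cell functions lay close to the middle. No gene was past 2-fold among 22 cytosolic ribosome genes (median 0.09), 19 proteasome genes (-0.11), 6 photosystem and antenna genes (0.24) and 7 clock genes (0.20). Of all genes 5.08% were higher and 2.3% lower, so lists of this size would hold few such genes. In the brightest group by mean level these shares were 1.48% and 0.81%. All of the ribosome and proteasome genes reached a signal of 100. With an offset of 1 the clock list held 1 higher gene. Of 12 chlorophyll synthesis genes, 11 lay above 0, with a median of 0.41 that was 0.21 with the spike-in scaling. PORB, a protochlorophyllide reductase, had 4736 at 20 min and 2312 before, a difference of 1.03, and PPO, protoporphyrinogen oxidase, had 688.0 and 318.6, a difference of 1.07, and neither stayed past 2-fold with spike-in scaling. Of 17 genes of nitrogen use, NAR2.2, a partner of nitrate transporters, lay at the threshold with 100.9 at 20 min and 218.1 before. In the list of 16 cell death and autophagy genes the median was -0.14. LOL4, related to the plant cell death regulator LSD1, had 1920.2 at 20 min and 3872 before, a difference of -1.01. It was the 1 gene of the list at least 2-fold lower (6.25%, beside 2.3% of all genes). With an offset of 64 or after quantile normalization the list held 0 lower genes. In the antisense pair it held 0 lower genes and 1 higher.

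The leaf label was checked on marker genes, and 3 of 4 leaf markers were among the bright signals. RCAA1 (rubisco activase) had 47362 at 20 min and 38392 before, CAB2R (a chlorophyll-binding protein) had 37210.3 and 27103 and RBCS (rubisco small subunit) had 28273 and 25079, while RBCS1 stayed near background with 15.4 and 27.6. The 7 root markers summed to 1129 at 20 min and 1268 before. Lsi2, a silicon efflux transporter of roots, was listed at 1.34 and 1, and Lsi1, the silicon channel, had 722.4 and 792.4. The part of root tissue in any result was not tested.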

How the data were processed

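RNA from rice leaves was labelled and hybridised to 6 Affymetrix rice arrays, 1 for each of 6 groups, per the labels' protocols. MAS5 gave 1 log2 value for each probe set, as deposited by the authors (per the submitters' processing notes). Its version and scaling target are not given in the sources used here. On the linear scale the 6 arrays had trimmed means of 497.5 to 497.7 and a lowest signal of 1. On the 20 min and before arrays of nontransgenic leaves, 33.6% and 37.7% of rice probe sets had a signal under 16.

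Differences were taken on log2(signal + 16), where signal is the linear value, with no further normalization. Samples were grouped by their titles. With 1 array a group there was no test and no replicate spread, and a gene was counted as past 2-fold by its difference alone. The single array limits the precision of every value.

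The platform annotation gave 1 gene for 22436 of 57258 probe sets, several for 95 and none for 34727. Probe sets with several genes were left unnamed. Each of 17905 genes was represented by the probe set with the highest mean over the 6 arrays. All were found in the RefSeq gene table (assembly ASM3414082v1), which named 2450. Its names can follow older usage. Promoter sequences were not used here.

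The text names the 15 genes furthest above and the 15 furthest below among those with a name and a signal of at least 100 in either array, and up to 5 members of each list by the size of the difference. The 38 gene lists were made by name patterns, and 20 matches were removed by their annotation. The comparison and the lists were chosen with earlier results of these data known.

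Alternatives were other offsets (1 and 64), 3 other scalings, only probe sets above the median level, and the mean over a gene's probe sets. Python 3.11.15, numpy 2.4.6, pandas 2.3.3 and matplotlib 3.10.9 were used.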

Additional observations from a re-analysis of the deposited data

Results flagged for a closer look

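VIT2, a vacuolar iron transporter gene, had differences of opposite sign in the 2 genotypes. It differed by 3.03 on the log2(signal + 16) scale in nontransgenic leaves (1812 at 20 min, 208.4 before) and by -1.92 in antisense leaves (2.12 at 20 min, 52.5 before). The antisense value at 20 min is below 16, and with an offset of 64 the differences were 2.78 in nontransgenic and -0.82 in antisense leaves, the second inside 2-fold. The nontransgenic signal at 3 h was 45.1. The difference between the genotypes was not tested, since each has 1 array a time.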

How the results depend on the processing

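All 15 upper and 15 lower named genes stayed past 2-fold under all 7 alternatives, and no list with a median beyond 0.5 changed sign. Counts past 2-fold depended on the settings. With an offset of 1 they were 10739 probe sets higher and 6417 lower, and 1678 genes higher and 902 lower. With an offset of 64 they were 653 and 291 probe sets, and 378 and 178 genes. Above the median level they were 1409 and 673 probe sets, and 573 and 274 genes, as fewer features were counted. Quantile normalization gave 3133 probe sets higher and 2914 lower, and spike-in scaling 3523 and 3041, with 700 genes higher and 681 lower. The cause of these last shifts was not tested. Equal 75th percentiles (828 and 442 genes) and the mean over probe sets (851 and 387 genes) stayed within 1.5 times. Of the differences of single named genes, 3 moved by over 1.5 times with an offset of 1, 6 with an offset of 64 and 5 with the mean over probe sets, among them DREB1E (2.10) and KSL10 (-1.41) with an offset of 64, KSL7 (-3.16 with an offset of 1, -1.51 with 64, -1.43 as a mean) and PAB1 (0.39 as a mean over its probe sets). No paired analysis was possible because each group is 1 array and the labels carry no replicate numbers, so no replicate could be left out either. Below a signal of about 16 the order and size of differences carry little information.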
